A study of Mus musculus with 4 samples.

Results

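The replication-dependent histone genes lie in gene clusters and encode the linker histone H1 and the core histones H2A, H2B, H3 and H4. Probes were taken as members when their RefSeq accession belonged to a gene with a cluster histone symbol, in the current style (H2bc4) or the earlier one (Hist1h2bc). This gave 50 genes with 54 probes, of 23462 genes and 56605 probes on the array. The RefSeq table lists 70 such genes, so 20 had no probe matched here. Of the 50 genes, 39 were found by their current symbol and 11 only by their earlier one, among them the H1 genes H1f1 to H1f6. The members comprised 6 genes for H1, 15 for H2A, 13 for H2B, 7 for H3 and 9 for H4. Cluster 1 held 39 of them, cluster 2 held 7, cluster 3 held 3 and cluster 4 held 1.

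All cultures were of B16-F10, a line of mouse melanoma cells derived from a C57BL/6 tumour, grown in medium with 10% fetal bovine serum. The control group was left without Cdh1 and the Cdh1 group received recombinant Cdh1 at 100 ng/mL, both for 24 h, and the labels name no other difference between them. Cdh1 is the gene symbol of E-cadherin, the adhesion molecule of epithelial cells, and the labels do not give the form of the protein. The experiment was done in 2 sets described as independent, and a set held 1 culture of either kind, so each group had 2 arrays. In the Cdh1 comparison without a block, the p-values rest on the spread between the 2 cultures of a group, which holds the set difference. In the comparison of the sets they rest on the spread between the control and the Cdh1 culture of a set. Both fits also draw the spread of each probe toward that of all probes.

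Replication-dependent histone genes are transcribed mainly in S phase, when new DNA needs new nucleosomes. NPAT, activated by cyclin E and Cdk2, drives their transcription at histone locus bodies, and their mRNAs end in a conserved stem-loop, bound by SLBP, in place of a poly(A) tail. The mRNAs are degraded when replication stops. Some of the genes, such as H2bc4, H2bc21 and H1f2, are also known to give polyadenylated transcripts, and H1f6, H2ac1 and H2bc1 are known as testis variants. The labelling kit primes from poly(A) tails, so the array signal need not follow the stem-loop form in proportion.

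The promoters of the members are shown first because some of their elements were most frequent in 1 histone type, while others were shared between types. RefSeq windows (GRCm38.p6) of 300 bases, from 250 before to 50 after the start, were matched for 43 of the 50 genes and gave 44 windows. Motifs were searched on both strands. The core of the H4 subtype element, GGTCCG, was in 8 of 8 H4 windows, 1 of 5 H3 windows and in none of the 6 H1, 14 H2A and 11 H2B windows. It was in 8.25% of all 32851 promoter windows. In the H4 genes its first base lay between positions -47 and -5 from the start, and it overlapped no other motif searched. It stands in capitals in these 60-base stretches of 5 H4 promoters.
H4c3 (chr13:23698459-23698518, minus strand): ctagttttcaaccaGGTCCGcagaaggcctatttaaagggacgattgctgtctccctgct
H4c4 (chr13:23581508-23581567, plus strand): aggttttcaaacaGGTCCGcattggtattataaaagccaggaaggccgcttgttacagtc
H4c9 (chr13:22041363-22041422, minus strand): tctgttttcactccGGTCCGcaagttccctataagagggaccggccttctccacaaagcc
H4c12 (chr13:21750554-21750613, minus strand): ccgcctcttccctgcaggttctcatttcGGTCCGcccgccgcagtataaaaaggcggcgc
H4f16 (chr6:136804432-136804491, minus strand): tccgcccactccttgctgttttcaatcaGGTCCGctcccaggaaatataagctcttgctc

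The H1 box, AAACACA, was in 5 of 6 H1 windows, with its first base between positions -122 and -112, and in 7.18% of all windows. It was also in 2 of 14 H2A and 2 of 11 H2B windows, and in no H3 or H4 window. The H1 stretches run for 130 bases and have the H1 box and the CCAAT box in capitals. The 3 genes shown include both H1 genes that differed most between the sets and, for contrast, H1f4.
H1f2 (chr13:23738677-23738806, plus strand): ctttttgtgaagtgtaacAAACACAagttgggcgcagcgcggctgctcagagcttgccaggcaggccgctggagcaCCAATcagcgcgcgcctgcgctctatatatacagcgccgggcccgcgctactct
H1f3 (chr13:23554902-23555031, plus strand): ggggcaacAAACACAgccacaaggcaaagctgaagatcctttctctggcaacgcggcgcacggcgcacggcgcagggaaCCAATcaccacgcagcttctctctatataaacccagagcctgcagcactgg
H1f4 (chr13:23622559-23622688, minus strand): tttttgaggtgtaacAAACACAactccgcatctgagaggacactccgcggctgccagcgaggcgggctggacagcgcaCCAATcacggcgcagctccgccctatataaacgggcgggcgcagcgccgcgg

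The octamer ATTTGCAT, the binding site of Oct1, was in 5 of 14 H2A and 5 of 11 H2B windows, in no H1, H3 or H4 window, and in 1.74% of all windows. The CCAAT box, bound by NF-Y, was in every H1, H2A, H2B and H3 window and in 2 of 8 H4 windows, against 37.4% of all windows. TATAAA was in 25 of the 44 member windows and 13.6% of all windows. In the 150-base H2B stretches, capitals mark the octamer and CCAAT, which reads ATTGG where it lies on the other strand. H2bc3 and H2bc14 are shown because both were lower in set 2, and H2bu2 because it was not and because its window holds no octamer. The windows of H2bc15 and H2bc7, also lower in set 2 (-0.36 and -0.18), hold no octamer either. That of H2bc18, lower but not called (-0.21), holds an octamer. Whether the octamer bears on the difference between the sets was not tested.
H2bc3 (chr13:23746584-23746733, plus strand): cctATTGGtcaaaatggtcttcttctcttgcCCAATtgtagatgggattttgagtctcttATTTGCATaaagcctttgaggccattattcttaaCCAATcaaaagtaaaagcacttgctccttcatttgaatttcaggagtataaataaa
H2bc14 (chr13:21721894-21722043, plus strand): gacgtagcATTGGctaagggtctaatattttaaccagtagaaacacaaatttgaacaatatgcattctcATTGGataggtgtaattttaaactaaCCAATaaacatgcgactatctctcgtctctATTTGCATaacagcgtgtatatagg
H2bu2 (chr11:58948761-58948910, plus strand): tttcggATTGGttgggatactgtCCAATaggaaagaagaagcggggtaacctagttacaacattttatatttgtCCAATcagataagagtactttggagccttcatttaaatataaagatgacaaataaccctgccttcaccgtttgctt
The H3 genes H3c4 and H3c13, which lay on opposite sides of 0 between the sets, are given as 100-base stretches with CCAAT in capitals.
H3c4 (chr13:23575663-23575762, plus strand): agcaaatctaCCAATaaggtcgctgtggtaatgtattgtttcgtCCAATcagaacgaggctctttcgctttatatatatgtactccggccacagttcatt
H3c13 (chr3:96268554-96268653, plus strand): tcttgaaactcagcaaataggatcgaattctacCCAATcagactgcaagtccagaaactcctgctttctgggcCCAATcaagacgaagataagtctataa

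Between 59.29% and 61.33% of the spots on an array were well above background and none was saturated. The number of arrays, 2 per group, limits the precision. Levels below are log2 processed intensities relative to the 75th percentile of the same array, and a gene with several probes is represented by its brightest. All 8 melanocyte markers (Tyr, Tyrp1, Dct, Pmel, Mlana, Mitf, Sox10 and Slc45a2) were above background on all 4 arrays. Ptprc, Krt10, Cdh5, Kdr, Tie1, Col3a1, Dcn and Lum, which define leukocytes, keratinocytes, endothelium and fibroblasts, were on none. Of 7 male germ cell markers, Dazl, Sycp3, Prm1 and Acrv1 were on none, while Ddx4, Prm2 and Tnp1 were above background on all 4.

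Of the 50 members, 42 were above background on all 4 arrays and entered both comparisons. H2bc22, H2bc23, H3c11, H4c17 and the transcribed pseudogenes H2af-ps2 and H2bu1-ps were above background on no array, H2ac7 on 1 and H1f1 on 2. These 8 genes were not tested, and no member was above background in 1 group alone. The testis variants H1f6, H2ac1 and H2bc1 were above background on every array. The array's probe sequences were not used here, and the histone genes of a type are near-identical in their coding parts, so what related transcripts add to a probe's signal was not tested.

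Cdh1 against control was the comparison the study was designed for. The cluster histone genes were slightly lower with Cdh1 as a list, and none passed the test. Of the 42 genes, 37 had a lower mean with Cdh1, and their median difference was -0.09 on the log2 scale, or -5.78%, beside -0.01 over all 14452 genes tested. The median was -0.08 in set 1 and -0.09 in set 2. In both sets 31 members were lower and 2 were higher, where 31.6% of all genes were lower in both and 19.7% higher in both. In 9 members the sets went opposite ways.

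limma with Benjamini-Hochberg adjustment called 0 of the 42 genes, where 0% of all genes and of the 32571 probes were called. At an unadjusted p under 0.05 there were 0 members against 1.1% of all genes, the smallest member p was 0.145, and the adjusted p was 1 for every member. With the set as a block, 2 of the 46 member probes, those of H1f2 and the dimmer of the 2 for H2bc3, had an unadjusted p under 0.05, against 7.17% of all probes, and 0 were called (lowest adjusted p 0.674). Leaving out 1 array leaves the sets unequal between the groups. The median of the members was then 0.02 without the set 1 control or without the set 2 Cdh1 array, and -0.20 and -0.21 without the set 1 Cdh1 or the set 2 control array. With 2 arrays on either side, exact permutation could at best reach p = 0.333. With 1 culture per group in a set, whether the sets differ in their response cannot be tested.

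**Figure D1:**
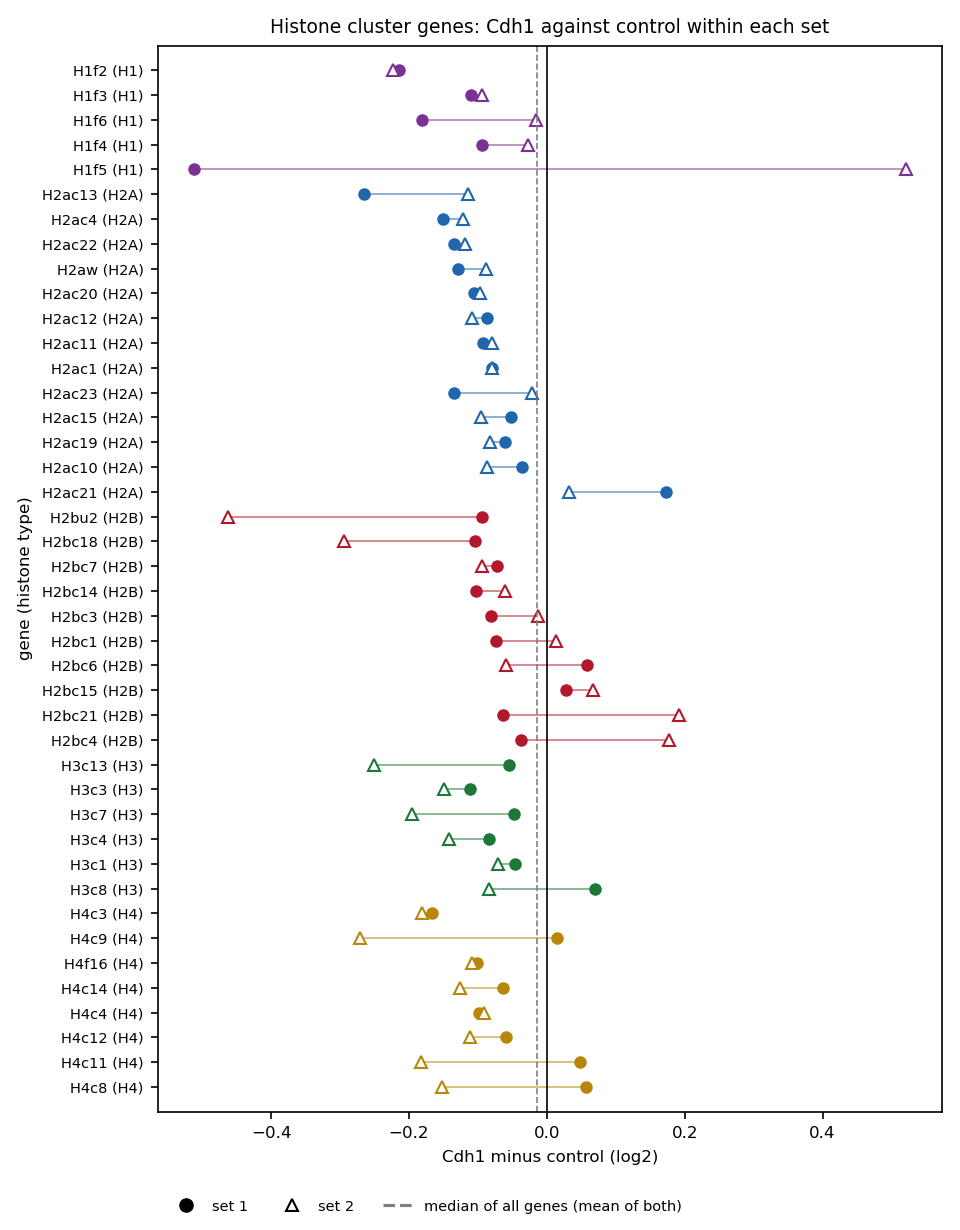
Difference between Cdh1 and control (log2, x axis) for the 42 tested histone genes (y axis, by type), within set 1 (circles) and set 2 (triangles); the dashed line is the median of all genes, -0.01. Most pairs lie left of 0 and the widest is that of H1f5, at -0.51 in set 1 and 0.52 in set 2.

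Among the linker histones, which bind the DNA entering and leaving the nucleosome, 4 of 5 were lower in both sets and the median was -0.10. H1f2 had levels of 0.40 (control) and 0.19 (Cdh1) in set 1 and of -0.18 and -0.40 in set 2. Cdh1 was lower in each set, but the control of set 2 lay below the Cdh1 culture of set 1, so the groups overlapped. By limma the mean difference came to -0.22 (SE 0.31, n = 2 per group). H1f5 was the member on which the sets disagreed most, at -0.51 and 0.52. Its probe lies in the last 24 rows of the array, as do those of H2ac4, H2bc22 and H3c13, and what that position adds was not tested.

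H2A pairs with H2B in the nucleosome. Of 13 H2A genes, 12 were lower with Cdh1 in both sets and the median was -0.09 in each of them. The lowest was H2ac13, with levels of -2.94 and -3.20 in set 1 and -3.27 and -3.39 in set 2, a difference of -0.19 with an SE of 0.17. H2ac21 was the exception, at -3.40 and -3.22 in set 1 and -3.61 and -3.57 in set 2, a difference of 0.10 with an SE of 0.18 that turned to -0.07 with normexp. Neither gene separated the groups.

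The H2B genes were spread around a median of -0.04, with 5 of 10 lower in both sets, 1 higher in both and 4 mixed. H2bu2 had the lowest value of any member, -0.28 with an SE of 0.15. Its levels were -4.55 and -4.23 in the controls of set 1 and set 2, and -4.65 and -4.69 with Cdh1. The groups did not overlap, but most of the difference came from set 2, where it was -0.46 against -0.09 in set 1. By its brightest probe, H2bc15 was the only H2B gene higher in both sets, by 0.03 and 0.07. The dimmer probe of H2bc21 was also higher in both, by 0.04 and 0.10, while its brighter probe was mixed.

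H3 and H4 form the tetramer at the centre of the nucleosome. All 6 H3 genes had a lower mean with Cdh1, 5 of them in both sets, with a median of -0.12. H3c13 was lowest, with levels of 1.33 and 1.28 in set 1 and 1.16 and 0.91 in set 2, a difference of -0.15 with an SE of 0.18. All 8 H4 genes had a lower mean, 5 in both sets, with a median of -0.10. H4c3 was lowest, at 1.04 and 0.92 in the controls and 0.87 and 0.74 with Cdh1. The 2 sets gave nearly the same difference, -0.17 and -0.18, and the groups did not overlap, but the adjusted p was 1 (limma, SE 0.12).

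In all, 4 members had groups that did not overlap, and in each the Cdh1 arrays were lower (H2bu2, H3c1, H3c7 and H4c3), where 8.37% of all genes separated in that direction and 6.1% in the other. The H4c4 probe printed 10 times shows the spread of repeat spots within an array. Over its 8 to 9 spots kept, the SD was between 0.02 and 0.03, and its levels were 7.30 and 7.20 in set 1 and 7.14 and 7.04 in set 2. Its difference with Cdh1 was thus -0.10 and -0.09, and its difference between the sets was -0.16 in both pairs. The spread of spots covers technical error only and not that between cultures.

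Set 2 against set 1 asks how far the 2 sets differ, which enters the error of the Cdh1 fit without the block. A set holds 1 control and 1 Cdh1 culture, and the fit takes these as replicates of the set. Its p-values therefore do not measure how far sets vary. Most cluster histone genes were lower in set 2, H2B most of all, and H3 did not share the direction. The median over the 42 members was -0.23, or -15.0%, beside -0.03 over all 14642 genes tested. It was -0.21 between the control cultures and -0.23 between the Cdh1 cultures. In both pairs 34 members were lower, where 45.3% of all genes were, and 2 were higher, where 35.5% of all genes were.

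limma called 7 members at an adjusted p under 0.05, all lower in set 2, where 11.5% of all genes were called lower and 7.54% higher. They were H1f3 and the H2B genes H2bc1, H2bc3, H2bc4, H2bc6, H2bc14 and H2bc15. The 7 of 42 members called are near the share of all genes called in either direction, 19%. The sets did not overlap in 33 members that were lower and 2 that were higher, where 41.3% and 31.7% of all genes separated in those directions. With the treatment as a block, 5 members were called (H1f2, H2bc1, H2bc3, H2bc4 and H2bc14), where 7.98% of all genes were. The calls rest on the pair of arrays in each set: without any 1 of the 4 arrays 0 members were called, and 10 to 16 member probes had an unadjusted p under 0.05. They rest also on the fit, since 0 member probes were called with dim probes kept and 30 (29 lower, and H3c4 higher) with a trended and robust prior.

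**Figure D2:**
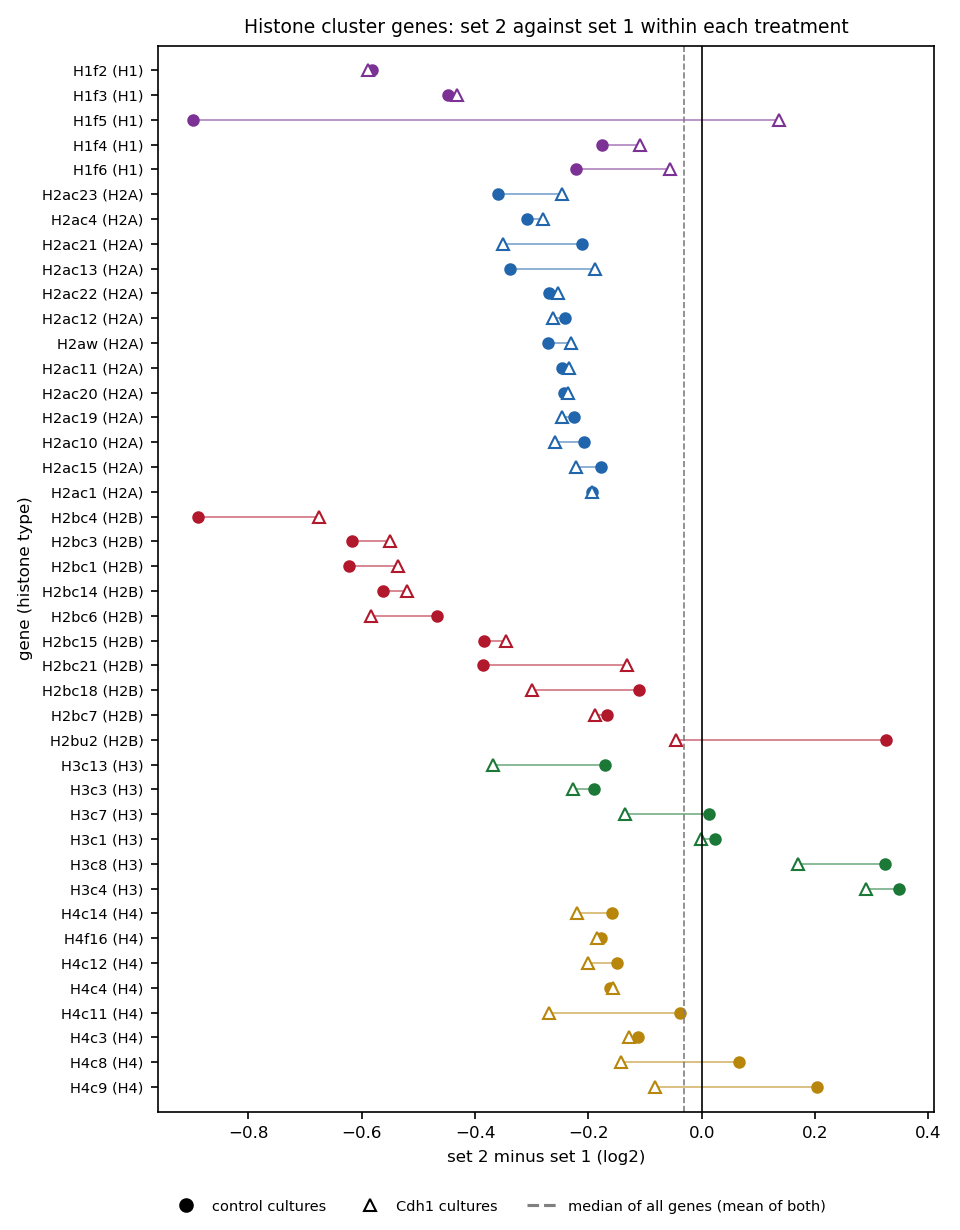
Difference between set 2 and set 1 (log2, x axis) for the 42 tested histone genes (y axis, by type), between the control cultures (circles) and between the Cdh1 cultures (triangles); the dashed line is the median of all genes, -0.03. The 13 H2A genes fall in a narrow band around -0.25, the H2B genes reach -0.89, and H3c4 and H3c8 lie right of 0.

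H2bc4 differed most. Its levels were 4.21 (control) and 4.17 (Cdh1) in set 1 and 3.32 and 3.50 in set 2. Both arrays of set 2 were lower than both of set 1, by 0.89 between controls and by 0.67 between Cdh1 cultures. The mean difference was -0.78 with an SE of 0.08, or -41.8% (limma, adjusted p = 0.0181). H2bc4 is one of the cluster genes known to give a polyadenylated transcript, as are H2bc21 (-0.26 by its brighter probe) and H1f2 (-0.59). Whether that trait bears on the size of the difference was not tested.

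H2bc3 had levels of 2.83 and 2.75 in set 1 and 2.21 and 2.20 in set 2, a difference of -0.58 with an SE of 0.06 (limma, adjusted p = 0.0171). Its second probe gave -0.59 (adjusted p = 0.0795), so the probes gave the same size and only 1 was called. H2bc1, the testis H2B, had levels of 2.08 and 2.01 against 1.46 and 1.47 (-0.58, adjusted p = 0.0168). The sets were far apart in both genes, with the treated and control cultures of a set close together. H2bc14 was at 2.86 and 2.76 against 2.30 and 2.24 (-0.54, adjusted p = 0.0232), and H2bc6 at -1.11 and -1.05 against -1.58 and -1.63 (-0.53, adjusted p = 0.0202). H2bc15 was at 1.66 and 1.69 against 1.28 and 1.34 (-0.36, adjusted p = 0.0349). In each of these 5 genes the control and Cdh1 arrays of a set lay close together.

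The other H2B genes were not called. H2bc21 gave -0.26 and -0.28 by its 2 probes, H2bc18 and H2bc7 were lower in both pairs, and H2bu2 gave 0.14, with the control pair higher and the Cdh1 pair lower in set 2. The H2B median was -0.45.

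**Figure D3:**
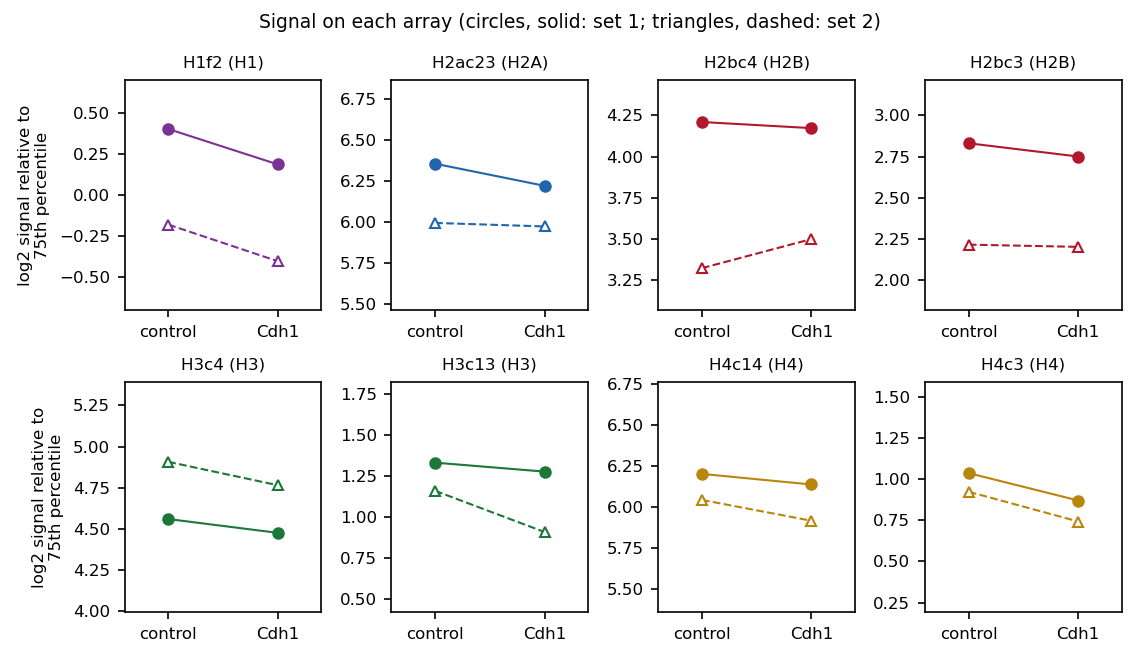
Level of 8 histone genes on each of the 4 arrays (log2 relative to the array's 75th percentile, y axis; every panel spans the same range), for control and Cdh1 cultures (x axis) of set 1 (circles) and set 2 (triangles). In H2bc4 and H2bc3 the lines of the sets are far apart, and in H3c4 set 2 lies above set 1. The lines of H2bc3 are nearly flat, while in H2bc4 that of set 2 rises from 3.32 to 3.50 with Cdh1.

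In the H1 genes the median was -0.38, and -0.14 with normexp. That median is the value of H1f5, whose pairs went opposite ways (-0.90 between controls and 0.14 between Cdh1 cultures). H1f3 was at 0.68 and 0.57 in set 1 and 0.23 and 0.13 in set 2, a difference of -0.44 (limma, adjusted p = 0.0377). H1f2 differed more, by -0.59 with an SE of 0.12, but its arrays within a set also differed more, and it missed the threshold (adjusted p = 0.0566). It passed with the treatment as a block (adjusted p = 0.0466), and over the other alternatives its limma adjusted p lay between 0.000669 (trended and robust prior) and 0.212 (dim probes kept). H1f4 and H1f6 each gave -0.14.

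The 13 H2A genes were all lower in set 2, in both pairs, between -0.30 and -0.19. The SD over these genes was 0.03, beside 0.49 over all genes. What related transcripts add to these probes was not tested, so the 13 values may not be independent. H2ac23 was lowest, at 6.36 and 6.22 in set 1 and 6.00 and 5.97 in set 2, and its difference of -0.30 had an adjusted p of 0.0675 (limma). None was called, though 12 of 13 had an unadjusted p under 0.05, where 40.4% of all genes did.

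The H3 genes did not share a direction, with 2 lower in both pairs, 2 higher in both and 2 mixed, and a median of -0.03 that turned to 0.01 with normexp background correction and to 0.02 with the authors' table. H3c4 was at 4.56 and 4.48 in set 1 and 4.91 and 4.77 in set 2, so both arrays of set 2 were higher. The difference was 0.32, or 24.7% higher (limma, adjusted p = 0.074). H3c8 gave 0.25 (adjusted p = 0.0823), and H3c13 gave -0.27 (adjusted p = 0.163). None of the 6 was called.

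The H4 genes had a median of -0.16, with 6 of 8 lower in both pairs. H4c14 was lowest, with levels of 6.20 and 6.14 against 6.04 and 5.92, a difference of -0.19 (limma, adjusted p = 0.156). None was called, and 0 had an unadjusted p under 0.05. 

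Pairs of cluster genes that share 1 promoter region were set side by side. The windows of 5 divergent H2A and H2B pairs overlapped, and in 2 pairs both genes were measured. H2bc15 and H2ac15 share 263 bases, and their differences between the sets were -0.36 and -0.20. H2bc1 and H2ac1 share 220 bases, and theirs were -0.58 and -0.19. In both pairs the H2B gene had the lower value, as the H2B genes had by median (-0.45, against -0.25 for H2A). What related transcripts add to these probes was not tested.

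Other genes of histone supply were taken from lists and read from the same fits. Some genes stand in several lists, among the called ones E2f1, Cdk2, Mcm2 and Casp8ap2. In the Cdh1 comparison none of these lists had a called gene and their medians lay between -0.03 and 0.02, with a sign that turned in each of the 5 lists under at least 1 other scaling of the arrays. The calls between the sets in these lists are to be read against the 7.54% of all genes called higher and the 11.5% called lower, and those in both pairs against 35.5% higher and 45.3% lower. With the treatment as a block, none of the genes called in the lists of variants, of processing and decay and of chaperones was called. Between the sets the median was 0.01 over 13 replication-independent variants, with 4 lower and 6 higher in both pairs. H3f3b, one of the genes for the variant H3.3, was the only one called, at 0.49 (limma, adjusted p = 0.0293, and 0.0534 with the block). Of 26 genes for histone mRNA processing and decay, 10 were lower and 9 higher in both pairs, the median was 0.01, and 3 were called, all higher. Among them, Lsm11, a subunit of the U7 snRNP that cleaves histone pre-mRNA, gave 0.50 (adjusted p = 0.0431, and 0.0602 with the block). Slbp, which binds the stem-loop, gave 0.23 (adjusted p = 0.0725), and Zfp473, a zinc finger protein that works with it, gave -0.37 (adjusted p = 0.0743).

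Of 15 genes for histone gene transcription, 4 were called, 3 higher and 1 lower, with a median of 0.01, and 1 (E2f1) with the treatment as a block. Npat, the coactivator of the clusters, gave -0.11 (limma, adjusted p = 0.272). Of 28 histone chaperone genes, 4 were called, all higher, which is a smaller share than the 19% of all genes called in either direction. The median of the list was 0.03. Set, which binds core histones, gave 0.42 (adjusted p = 0.0285, and 0.0675 with the block), and Hirip3 gave 0.36 (adjusted p = 0.0317, and 0.0717 with the block).

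The S-phase genes differed between the sets in the other direction from most histone members. Of 44 genes for replication, nucleotide supply and the G1/S transition, 34 were higher in set 2 in both pairs, where 35.5% of all genes were, and 7 were lower, where 45.3% were. The median was 0.17. limma called 7 higher and 1 lower, where 7.54% and 11.5% of all genes were called, and 1 gene (E2f1) with the treatment as a block. E2f1, a transcription factor of G1/S, was 0.71 higher with an SE of 0.06 (limma, adjusted p = 0.0125, and 0.0435 with the block). Cdk2 was lower, at -0.43 (adjusted p = 0.0235, and 0.0587 with the block). The replicative helicase subunits Mcm2, Mcm4 and Mcm6 were called at 0.32, 0.32 and 0.37, with adjusted p of 0.0804, 0.0931 and 0.0679 with the block. Its other subunits Mcm3, Mcm7 and Mcm5 gave 0.20, 0.20 and -0.03 and were not called. Ccne2, for cyclin E2, gave 1.20 but was not called (adjusted p = 0.159). It gave 0.30 with normexp, 1.84 without the set 2 control array (adjusted p = 0.0359) and 0.56 without the set 2 Cdh1 array, and was called with the trended and robust prior (adjusted p = 0.0369).

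**Figure D4:**
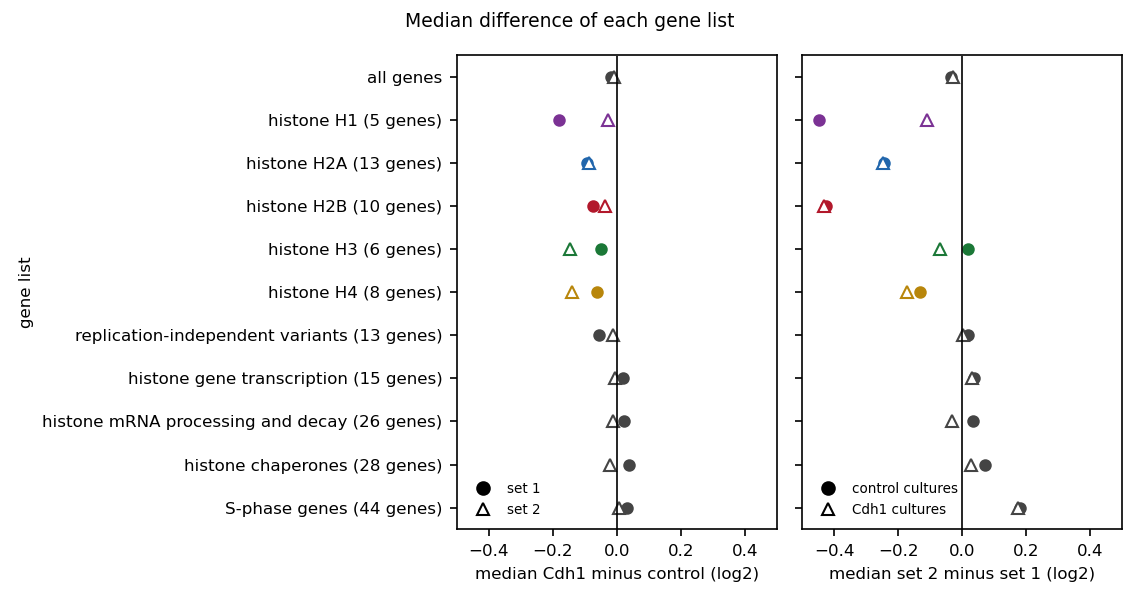
Median log2 difference (x axis) of each gene list (y axis) for Cdh1 against control and for set 2 against set 1, within each pair of cultures. Between the sets the H2B genes lie near -0.43 and the S-phase genes between 0.17 and 0.18, and with Cdh1 the H2A genes lie at -0.09 and the S-phase genes at 0.03 and 0.01.

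Other values moved with the sets as well. The melanocyte markers had a median of -0.30 in set 2 against set 1, with 4 of 8 called lower (2 with the treatment as a block), where 11.5% of all genes were. Their summed level was 10.64 and 10.61 in set 1 and 10.40 and 10.39 in set 2. The summed level of the fibroblast markers, of which 2 of 5 were above background, was between -2.82 and -2.74 in set 1 and between -3.54 and -3.33 in set 2. Their part in the difference of the histone genes between the sets was not tested. In RNA from whole cultures, a smaller share of cells in S phase and less histone RNA per cell cannot be told apart.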

How the data were processed

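RNA of 4 B16-F10 cultures was read on 1 slide in 1 scan. The deposited scanner files, made with Agilent Feature Extraction 12.0.3.1 per the file headers, give a processed Cy3 intensity per spot, corrected for background and with no scaling between arrays. A table of processed intensities was deposited by the authors too. Each of its columns was the scanner value times 1 factor, between 0.8735 and 0.9304. Whether and how that factor centres the arrays is not given in the sources used here.

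Control spots and marked outlier spots were left out. The processed intensity was taken to log2, each array's 75th percentile of it was subtracted, and the spots of a probe were averaged. Probes well above background (more than a share of 0.5 of their spots) on both arrays of at least 1 group, or of 1 set, were tested with limma 3.58.1 in R 4.3.3 (lmFit and eBayes), with Benjamini-Hochberg adjustment over all probes tested and a threshold of 0.05. Counts over genes use the brightest probe of each gene. Probes were named through the RefSeq table of GRCm38.p6; the file headers name mm9. The fit was also run on simulated arrays with known changes and no other difference between the sets. That simulation does not show how the Cdh1 fit without the block behaves with the set difference seen here.

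The set numbers pair the cultures, per the series' design text; the fit without the block is the one reported first. Alternatives were quantile normalization with or without normexp, the authors' table, centring on the median, other filters, marked spots kept, probe means, a trended and robust prior, the last 24 rows left out, blocks, and each array left out. Genes named by rule were the highest and lowest of each histone type in each comparison that moved one way in both sets, and the top pair of each other list. Other members are named for completeness, after their values were seen. The members and lists were chosen with earlier results of these data known.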

Additional observations from a re-analysis of the deposited data

How the results depend on the processing

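In the Cdh1 comparison 0 probes and 0 members were called under every alternative run. With the set as a replicate block, 2335 probes and 2 member probes had an unadjusted p under 0.05, against 561 and 0 without it, and 0 were called. The median of the members, -0.09, was -0.061 with normexp, -0.068 with quantile normalization alone, -0.13 with median centring (all probes -0.048), -0.062 with the authors' table and -0.10 with the mean of a gene's probes. Leaving out 1 array gave -0.21 to 0.017. Among the 16 named genes, 172 of 173 values kept their sign under the other alternatives (H2ac21 turned to -0.067 with normexp). With 1 array left out, 12 of 64 turned, with ranges of -0.51 to 0.076 for H1f2, -0.073 to 0.28 for H2ac21, -0.14 to 0.24 for H2bc15, -0.34 to 0.031 for H3c13, -0.15 to 0.41 for Lsm11, -0.081 to 0.26 for Ccne1 and -0.20 to 1.58 for Ccne2. In those fits the groups no longer hold both sets alike.

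Between the sets, 5098 probes were called, and 9028 with normexp, 11196 with a trended and robust prior, 2165 with the treatment as a block, 0 with dim probes kept, and 0 to 706 with 1 array left out. The 7 member probes called became 15, 30, 5 and 0 under the first 4 of these and 0 to 0 with 1 array left out. More probes were tested with dim probes kept, and fewer arrays entered with 1 left out; otherwise the cause was not tested. The median of the members, -0.23, was -0.15 with normexp, -0.17 with quantile normalization, -0.19 with the authors' table, -0.21 without the last rows and -0.27 to -0.15 with 1 array left out. None of the 14 named genes turned its sign.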
